A study of Mus musculus with 9 samples.

Results

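The 10 transcripts described here belong to the growth hormone and insulin-like growth factor (IGF) axis of the liver: Ghr, Stat5a, Stat5b, Socs2, Cish, Igf1, Igfals, Igfbp1, Igfbp2 and Igfbp4. They were picked by gene symbol out of 56748 genes in the deposited count table, each symbol matched 1 row, and all 10 passed the filter on low counts that left 13042 genes for testing. Growth hormone from the pituitary binds its receptor GHR on hepatocytes, the kinase JAK2 phosphorylates STAT5A and STAT5B, and these switch on Igf1, Igfals and the feedback inhibitors Socs2 and Cish. The liver is the main source of circulating IGF1, which travels in blood bound to IGF-binding proteins and to the acid-labile subunit that Igfals encodes. Hepatic Igfbp1 and Igfbp2 also follow the nutritional state, and Igfbp1 is known as a gene that insulin represses and cyclic AMP induces.

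The libraries were made from polyadenylated RNA of whole liver. All donors were male C57BL/6J mice, 28 weeks old, and both groups were on a high-fat diet from the age of 8 weeks, 20 weeks in all. The vehicle group of 4 mice received DMSO and the formoterol group of 5 mice received formoterol at 1 mg/kg, both by daily injection into the peritoneum over the last 4 weeks. Formoterol activates beta-2 adrenergic receptors, which raise cyclic AMP, and its action is long-lasting. The question was which liver transcripts differed between treated and control mice on that diet. The group of each library was read from the ending of its column name together with the group sizes of 5 and 4, and every direction given below rests on that reading. Libraries held 12336665 to 20339665 counts, with totals that overlapped between the groups. Genes of the mitochondrial genome took 16.38% (M46) to 38.59% (M50) of counts in formoterol libraries and 23.42% to 33.99% in vehicle libraries. Hepatocyte markers were abundant in every library, with a summed level of at least 89560 CPM (counts per 1000000, scaled with TMM factors) over 9 genes, whereas Gh, Ghrh, Sst and Prl, hormones of the pituitary and hypothalamus, had 0 counts in every library.

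The largest positive differences were those of 3 of the 10 transcripts, all with higher values in formoterol livers: Igf1 at 1.75-fold, Igfbp2 at 2.45-fold and Socs2 at 2.65-fold. Igfbp1 had the largest difference in the other direction, at 0.444-fold. No member passed the edgeR quasi-likelihood test with p adjusted over all 13042 genes, a test that called 0 genes in all (0%). At an unadjusted p under 0.05 there were 3 members higher and 0 lower, where 14.6% of all genes tested had such a p (9.03% higher and 5.53% lower). That split of all genes depended on the scaling, with 1178 higher and 721 lower here, 991 and 881 with upper-quartile scaling, and 467 and 1292 with library-total scaling, where the members numbered 3 higher and 1 lower. The log2 fold change, formoterol minus vehicle, was positive for 8 of 10 members against 48.7% of all genes, and its median was 0.34 against −0.01 over all genes tested. No member had groups that did not overlap, against 4.84% of all genes. DESeq2 called Igf1, Igfbp2 and Socs2, and 2.41% of all genes. Limma-voom called 0 members and 0% of genes, but with quality weights for the samples it called 5 members (Igf1, Igfbp2, Socs2 and Igfals higher, Stat5a lower) and 10.8% of genes. Those weights ran from 0.369 for M49 to 3.51 for M47. Without the filter on low counts edgeR called Igf1 alone among members, and 1.09% of genes. Without formoterol library M49 edgeR called Igf1 and Igfbp2, and 5.51% of genes, and without vehicle library M60 it called 0 members and 0.0303% of genes.

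The count at an unadjusted p under 0.05 can be read against its own background in the same way. It was 5 members by DESeq2 (15.7% of genes), 3 by limma-voom (15.6%), 8 with quality weights (28.4%) and 4 without the filter (13%). With 1 library left out it was 3 members without M46, M47, M48, M56, M58 or M59, against 11%, 11.8%, 10.9%, 9.05%, 12.3% and 10.2% of genes. It was 4 without M50 (17.7%), 5 without M49 (23.4%) and 6 without M60 (13.6%).

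**Figure D1:**
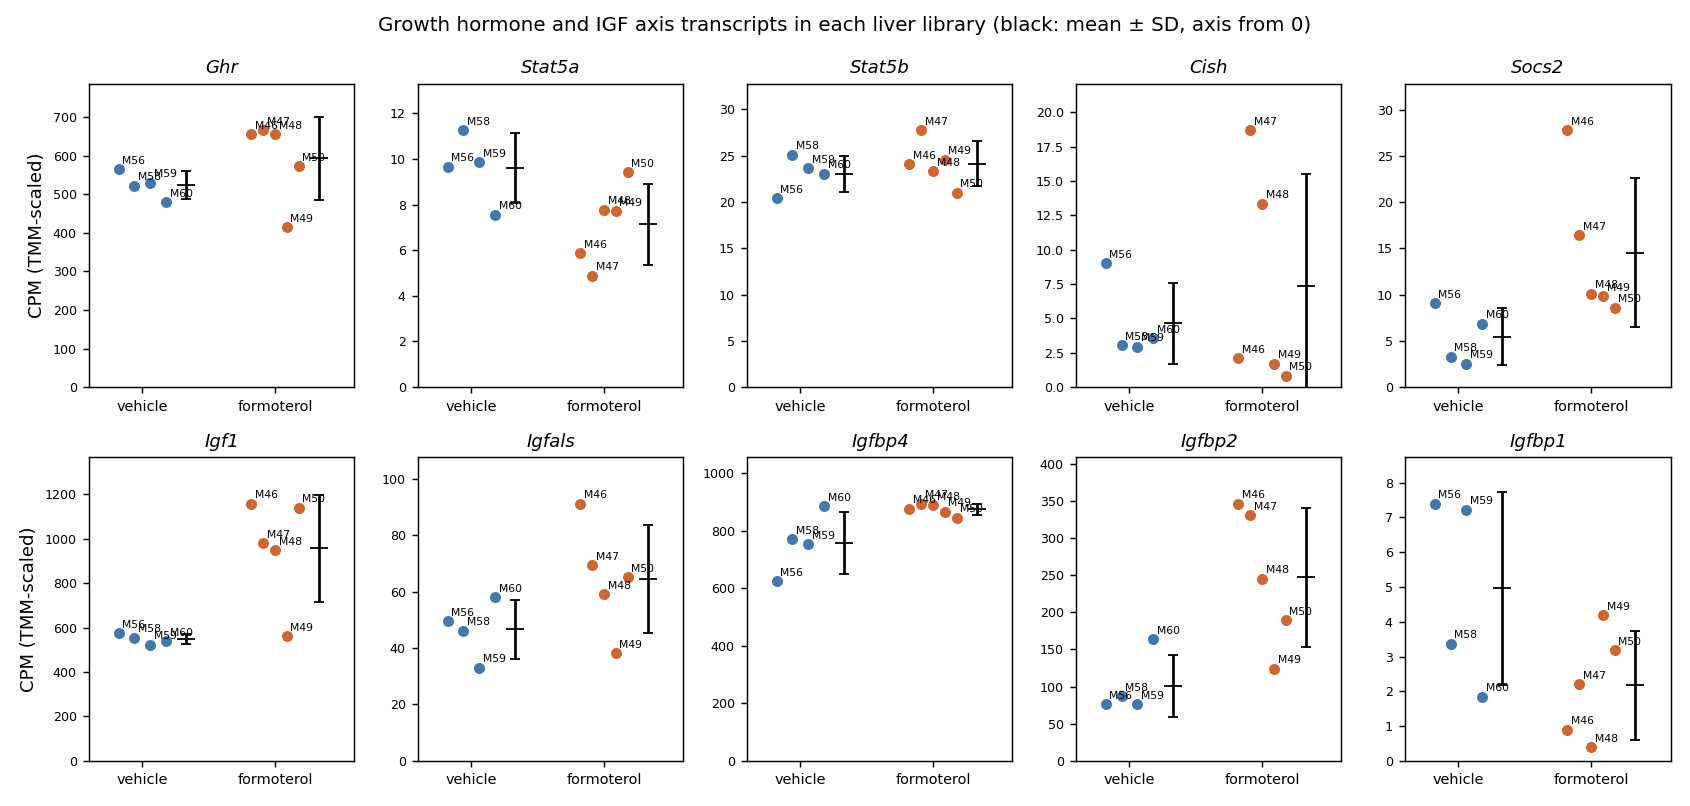
CPM of the 10 transcripts (vertical axes, TMM-scaled, each from 0) in 4 vehicle libraries (blue) and 5 formoterol libraries (orange), with the mean ± SD in black beside each group. Igf1 lay between 948 and 1159 CPM in 4 formoterol libraries and at 561 in M49, against 522 to 576 in the vehicle libraries.

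Ghr, the growth hormone receptor (ENSMUSG00000055737; chromosome 15, 3347242 to 3612974 on mm39), was among the more abundant members. Vehicle libraries M56, M58, M59 and M60 held 565, 523, 530 and 479 CPM, and formoterol libraries M46, M47, M48, M49 and M50 held 655, 667, 656, 415 and 572 CPM. Thus 4 formoterol libraries lay above every vehicle library, while M49 lay below all of them. The group means were 524 ± 35.5 (SD, n = 4) and 593 ± 107 (SD, n = 5), and the log2 fold change of 0.18 (95% confidence interval −0.17 to 0.53; edgeR adjusted p = 0.659) was within the spread between libraries. In bulk tissue, fewer cells of a type and less RNA per cell cannot be told apart, for this and each later value.

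Stat5b, the more abundant of the paralogous STAT5 genes in these livers (chromosome 11, 100671557 to 100741550), ranged from 20.4 to 25.1 CPM in vehicle and from 21.0 to 27.8 CPM in formoterol libraries. Its log2 fold change was 0.07 (95% confidence interval −0.23 to 0.37; edgeR adjusted p = 0.865), and −0.08 when libraries were scaled by their totals alone. Stat5a (chromosome 11, 100750177 to 100775995) had 9.67, 11.3, 9.86 and 7.55 CPM in vehicle libraries M56, M58, M59 and M60. The formoterol libraries M46 to M50 had 5.86, 4.89, 7.78, 7.70 and 9.41 CPM. M46 and M47 lay below every vehicle library and the other 3 lay inside the vehicle range. Its log2 fold change was −0.42 (95% confidence interval −0.89 to 0.05; edgeR adjusted p = 0.395), and only limma-voom with quality weights, of the tools and alternatives run, called it (adjusted p = 0.0407). The Stat5a gene overlaps the more abundant Stat3 on the opposite strand, but only over its last bases, since Stat3 spans 100775924 to 100830366. Stat5a also shares coding sequence with Stat5b. Whether the counting used strand is not given in the sources used here, so the Stat5a values are uncertain.

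Socs2 encodes a STAT5-induced inhibitor that dampens signalling by the growth hormone receptor (chromosome 10, 95221224 to 95253042). Its level was 9.09, 3.29, 2.54 and 6.86 CPM in vehicle libraries M56, M58, M59 and M60. Formoterol libraries M46 to M50 held 27.8, 16.4, 10.1, 9.85 and 8.59 CPM. Every formoterol library except M50 was above every vehicle library, and M50 lay just under vehicle library M56. The mean was 14.6 ± 8.02 CPM (SD, n = 5) against 5.44 ± 3.07 (SD, n = 4), with a log2 fold change of 1.41 (SE 0.45; 95% confidence interval 0.43 to 2.38). The edgeR adjusted p was 0.209 and the DESeq2 adjusted p 0.0289. The log2 fold change ran from 1.03 without M46 to 1.77 without M56.

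Cish, a second STAT5-induced inhibitor of cytokine receptors (chromosome 9, 107173225 to 107179983), varied more between libraries. In vehicle libraries M56, M58, M59 and M60 there were 9.03, 3.04, 2.93 and 3.54 CPM, and formoterol libraries M46 to M50 had 2.12, 18.7, 13.4, 1.71 and 0.824 CPM. The formoterol libraries lay on both sides of the vehicle range, with M47 and M48 above it and M46, M49 and M50 below it. The highest formoterol value was 22.7 times the lowest, the widest ratio of any member within a group. The log2 fold change of 0.65 had a 95% confidence interval from −1.45 to 2.76 (edgeR adjusted p = 0.796), and it was −0.06 without M47 and −0.23 by limma-voom. The ratio of Cish to Socs2 counts within a library, in which library scaling cancels, was 0.515 to 1.15 in the vehicle libraries. It was 1.14 and 1.32 in M47 and M48 but 0.0760, 0.173 and 0.0959 in M46, M49 and M50. The groups differed by −1.59 in the log2 ratio (two-sided exact permutation p = 0.175).

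**Figure D2:**
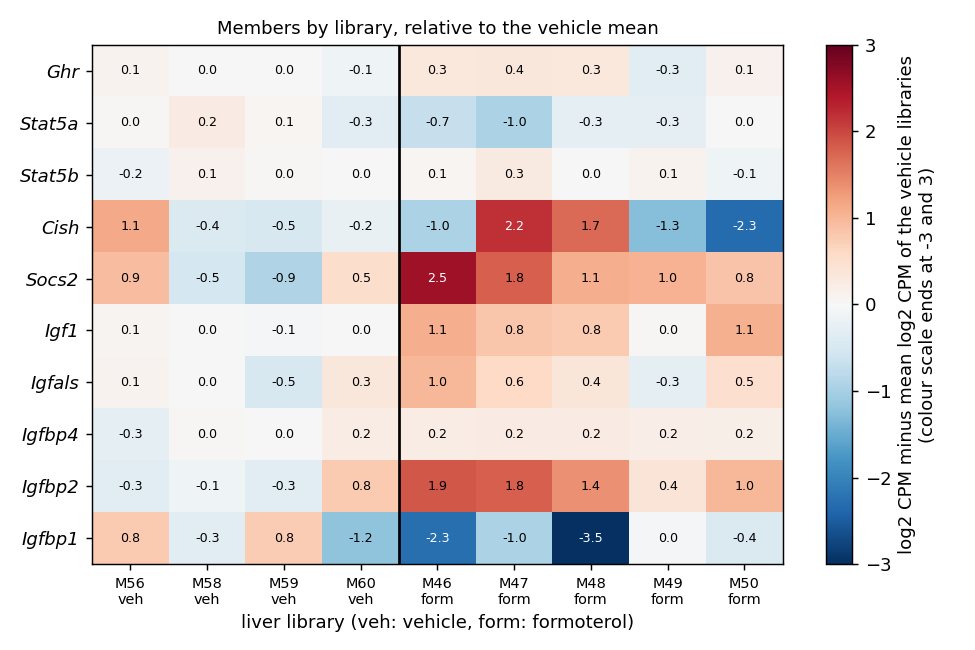
Log2 CPM of each member in each library minus the mean log2 CPM of the 4 vehicle libraries (colour and printed value; vehicle left of the black line, formoterol right of it). Igf1 was 0.79 to 1.08 above the vehicle mean in formoterol libraries M46, M47, M48 and M50 and 0.03 above it in M49, while Cish ran from −2.32 in M50 to 2.19 in M47.

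STAT5 dimers bind the palindrome TTCNNNGAA, so the RefSeq promoter windows of the members (250 bases before to 50 bases after the annotated start, GRCm38.p6, a different build from the count table) were searched for it. Windows were found for 9 members, 15 in all. TTCNNNGAA was present in 3 of these 15 windows, those of Cish and Igfals, against 8.3% of 32851 windows of all genes. The sequences with matches are shown because both genes are known targets of STAT5, with the matched letters in capitals. Each reads 5′ to 3′ along the gene.
Cish (chr9:107296409-107296708, plus strand): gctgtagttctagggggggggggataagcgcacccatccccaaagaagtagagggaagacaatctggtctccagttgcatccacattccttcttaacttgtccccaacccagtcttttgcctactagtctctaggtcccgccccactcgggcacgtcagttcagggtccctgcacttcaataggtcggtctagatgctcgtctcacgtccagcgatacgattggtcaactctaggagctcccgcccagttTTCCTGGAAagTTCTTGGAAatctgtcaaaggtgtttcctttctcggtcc
Igfals, upstream window (chr17:24877594-24877893, plus strand): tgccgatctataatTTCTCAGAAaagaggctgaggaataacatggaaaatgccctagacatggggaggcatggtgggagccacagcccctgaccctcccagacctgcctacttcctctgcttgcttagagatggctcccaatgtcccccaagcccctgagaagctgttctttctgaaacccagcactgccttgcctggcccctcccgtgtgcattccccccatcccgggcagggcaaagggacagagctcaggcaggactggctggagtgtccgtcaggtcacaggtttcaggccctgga
Igfals, downstream window (chr17:24877981-24878280, plus strand): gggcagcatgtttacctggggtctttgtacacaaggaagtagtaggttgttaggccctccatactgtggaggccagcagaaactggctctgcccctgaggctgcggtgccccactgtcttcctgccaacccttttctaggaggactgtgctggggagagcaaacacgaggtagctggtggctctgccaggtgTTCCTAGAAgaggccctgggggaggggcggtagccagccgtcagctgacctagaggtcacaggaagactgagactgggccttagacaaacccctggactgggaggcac
The matches in Cish span bases 1 to 9 and 12 to 20 counted from the start, as TTCCTGGAA and TTCTTGGAA. In Igfals they lie at −236 to −228 as TTCTCAGAA in the upstream window and at −58 to −50 as TTCCTAGAA in the downstream one. The cyclic AMP response element TGACGTCA was in 0 of 15 member windows against 1.79% of all windows, and its core TGACG, searched on both strands, was in 4 of 15 against 20.8%. A match here is a string of letters, not a measured binding site.

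Igf1 (ENSMUSG00000020053; chromosome 10, 87694127 to 87772904) encodes the hormone through which growth hormone acts on most tissues. In vehicle order M56, M58, M59 and M60 the level was 576, 554, 522 and 539 CPM. Formoterol libraries M46 to M50 held 1159, 981, 948, 561 and 1141 CPM. The vehicle livers were close to each other, 4 formoterol livers were well above them, and M49 lay within the vehicle range. Means were 958 ± 241 CPM (SD, n = 5) against 548 ± 22.9 (SD, n = 4), a coefficient of variation of 25.2% against 4.17%. The log2 fold change was 0.81 (SE 0.20; 95% confidence interval 0.38 to 1.23; edgeR adjusted p = 0.159), which ranked Igf1 80th of 13042 genes by p, and DESeq2 gave an adjusted p of 0.00809. Without M49 the log2 fold change was 0.94 and the edgeR adjusted p 0.00264, and without any other 1 library the adjusted p lay between 0.156 and 0.477. The gene Igf1os on the opposite strand held counts equal to only 0.306% of those of Igf1.

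The RefSeq window of Igf1 is shown because this member had the smallest p of the 10, with no capitals since none of the motifs searched was found in it.
Igf1 (chr10:87860861-87861160, plus strand): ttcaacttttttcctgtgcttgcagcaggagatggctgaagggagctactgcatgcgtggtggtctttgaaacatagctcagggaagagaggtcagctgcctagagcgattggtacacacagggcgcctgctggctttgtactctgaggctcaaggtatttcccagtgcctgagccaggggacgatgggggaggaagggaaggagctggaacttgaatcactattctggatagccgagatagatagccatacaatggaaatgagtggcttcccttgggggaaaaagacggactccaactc
Regulatory elements of a gene can lie far outside such a window, so an empty window says only that these letters are absent from it.

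Because Igf1 and Ghr are of similar length (9904 and 9053 bp) and are both read from the same library, their ratio is free of library scaling. The Igf1 to Ghr count ratio was 1.02, 1.06, 0.986 and 1.13 in vehicle libraries M56, M58, M59 and M60. It was 1.77, 1.47, 1.45, 1.35 and 1.99 in formoterol libraries M46 to M50. Every formoterol library, M49 included, had more Igf1 per Ghr than every vehicle library. The log2 ratio was 0.67 ± 0.23 (SD, n = 5) against 0.07 ± 0.08 (SD, n = 4), a difference of 0.60. The two-sided exact permutation p was 0.00794, the smallest that 126 splits allow, and 0.0238 adjusted over the 3 ratios computed. The 3 ratios were chosen with earlier results of these data known, and the adjustment does not cover that choice. Leaving out each library in turn gave differences from 0.52 to 0.66. The exact permutation p of each such set was the smallest its splits allow, from 0.0179 to 0.0286, a floor set by the group sizes. These p-values add nothing to the main result. The ratio alone shows unequal change of the pair, not which of them changed. In CPM, M49 held Igf1 within the vehicle range (561) and Ghr below every vehicle library (415). In M46, M47, M48 and M50 both genes lay above every vehicle library.

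Igfals, the acid-labile subunit that holds IGF1 in a large circulating complex (chromosome 17, 25084971 to 25100984), shared its highest and lowest formoterol libraries with Igf1. Its level was 49.4, 46.1, 33.005 and 58.02 CPM in vehicle libraries M56, M58, M59 and M60, and in formoterol libraries M46 to M50 it was 91.1, 69.3, 59.1, 38.1 and 65.0 CPM. M46 was the highest and M49 the lowest formoterol library, and M49 alone lay inside the vehicle range. The log2 fold change of 0.47 had a 95% confidence interval of −0.01 to 0.94 (edgeR adjusted p = 0.355), and it ranged from 0.30 without M46 to 0.61 without M49.

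Igfbp2, a binding protein secreted by hepatocytes that is known to be low in obese and insulin-resistant mice (chromosome 1, 72863662 to 72891633), had the second smallest p of the members. The vehicle values in M56, M58, M59 and M60 were 76.5, 87.1, 75.9 and 163.7 CPM. Formoterol libraries M46 to M50 had 346, 331, 245, 124 and 189 CPM. The overlap came from M60, which held far more than the other vehicle libraries, and from M49, which was the lowest formoterol library yet above the other 3 vehicle libraries. Means were 247 ± 93.9 CPM (SD, n = 5) against 101 ± 42.2 (SD, n = 4), with a log2 fold change of 1.29 (SE 0.32; 95% confidence interval 0.59 to 1.99; edgeR adjusted p = 0.167; DESeq2 adjusted p = 0.00462). Without M49 the log2 fold change was 1.46 and the edgeR adjusted p 0.0126, and without M60 these were 1.63 and 0.127.

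Igfbp1, which limits free IGF1 acutely (chromosome 11, 7147782 to 7152546), was a rare transcript here with 6 to 148 counts per library. It measured 7.40, 3.37, 7.23 and 1.85 CPM in vehicle libraries M56, M58, M59 and M60, and formoterol libraries M46 to M50 had 0.895, 2.20, 0.389, 4.19 and 3.18 CPM. M46 and M48 lay below every vehicle library, while M47, M49 and M50 lay among them. Formoterol minus vehicle, the log2 fold change was −1.17 (SE 0.57; 95% confidence interval −2.41 to 0.07; edgeR adjusted p = 0.371), from −1.56 without M49 to −0.92 without M56. The interval includes 0.

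The Igfbp1 window is shown because its promoter holds the best-known insulin-responsive sequence among the IGF-binding proteins, with the letters CAAAACA in capitals. On the other strand they read TGTTTTG, a forkhead-like string searched for after the sequences had been read.
Igfbp1 (chr11:7197537-7197836, plus strand): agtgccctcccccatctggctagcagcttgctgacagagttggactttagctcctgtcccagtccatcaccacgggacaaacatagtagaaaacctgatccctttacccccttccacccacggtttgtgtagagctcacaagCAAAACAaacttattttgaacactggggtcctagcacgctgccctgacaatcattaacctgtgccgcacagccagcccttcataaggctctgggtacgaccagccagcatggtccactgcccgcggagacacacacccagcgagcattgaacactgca
The match spans −108 to −102, and 6.28% of all windows hold this string. The forkhead core TGTTTNC, searched on both strands, was not in this window but was in 4 of the 15 member windows (Cish, Ghr, Igfals and Stat5b) against 20.5% of all windows.

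The Igfbp2 to Igfbp1 count ratio joined these opposite differences. It was 10.3, 25.8, 10.5 and 88.6 in vehicle libraries M56, M58, M59 and M60, and 387, 151, 630, 29.6 and 59.6 in formoterol libraries M46 to M50. The ranges overlapped through M60, M49 and M50. The log2 ratio differed by 2.70 (two-sided exact permutation p = 0.0635, 0.0952 adjusted over the 3 ratios). Without M60 the difference was 3.36 and the exact permutation p 0.0357.

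Igfbp4, a hepatocyte-secreted inhibitor of IGF action (chromosome 11, 98932070 to 98945218), was the steadiest member under formoterol. Formoterol libraries M46 to M50 had 877, 894, 888, 867 and 845 CPM, a coefficient of variation of 2.20%. Vehicle libraries M56, M58, M59 and M60 had 624, 771, 753 and 885 CPM, a coefficient of variation of 14.1%. The narrow formoterol range lay at the top of the vehicle range, and M60 was inside it. On the log2 scale the fold change was 0.21 (95% confidence interval −0.11 to 0.52; edgeR adjusted p = 0.545).

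**Figure D3:**
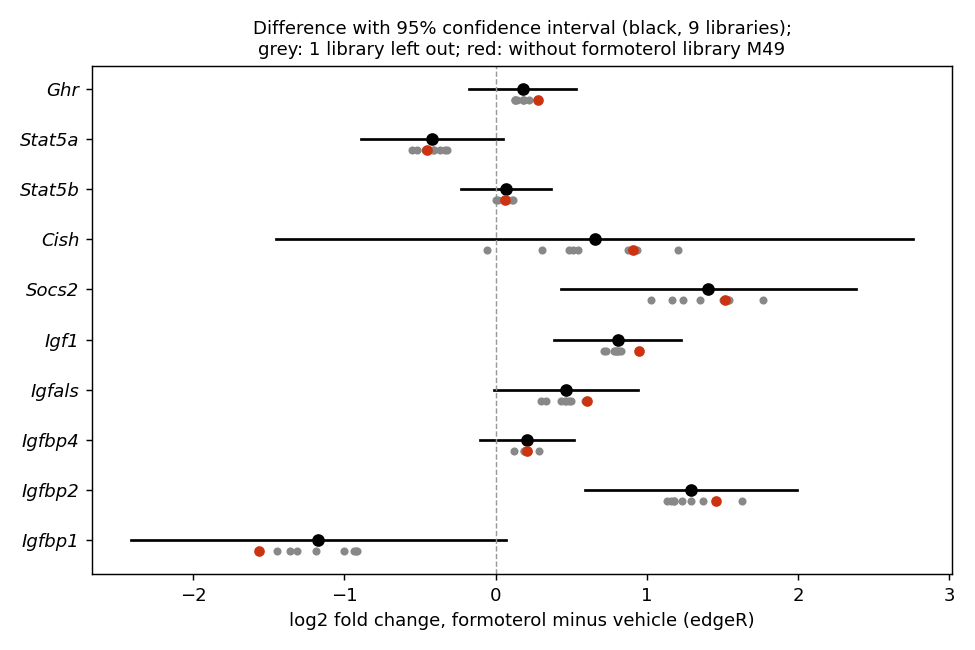
Log2 fold change of each member, formoterol minus vehicle (horizontal axis), from the edgeR fit of all genes: black points with 95% confidence intervals for 9 libraries, grey points with 1 library left out, red points without M49. The intervals of Igf1 (0.38 to 1.23), Igfbp2 (0.59 to 1.99) and Socs2 (0.43 to 2.38) lay above 0, and the interval of Cish (−1.45 to 2.76) was the widest.

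Levels of different genes were compared as CPM per kb of deposited gene length. Igfbp4 was the highest member in the vehicle livers at 172 ± 24.2 CPM per kb, clear of the next genes in every library. Ghr (57.9 ± 3.92), Igf1 (55.3 ± 2.31) and Igfbp2 (54.6 ± 22.9) followed with overlapping libraries, and then Igfals at 14.7 ± 3.28, below all of them. Stat5b (4.16 ± 0.356), Igfbp1 (3.25 ± 1.83), Stat5a (1.34 ± 0.215), Cish (0.722 ± 0.458) and Socs2 (0.571 ± 0.323) formed the low end, where each neighbour overlapped the next. In the formoterol livers the order of means below Igfbp4 (198.0 ± 4.36) was Igfbp2 (134 ± 50.9), Igf1 (96.7 ± 24.3) and Ghr (65.5 ± 11.8), and the libraries of neighbouring genes among these 3 overlapped. Socs2 stood at 1.53 ± 0.841 CPM per kb, in a low group with Igfbp1, Cish and Stat5a whose neighbours overlapped.

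**Figure D4:**
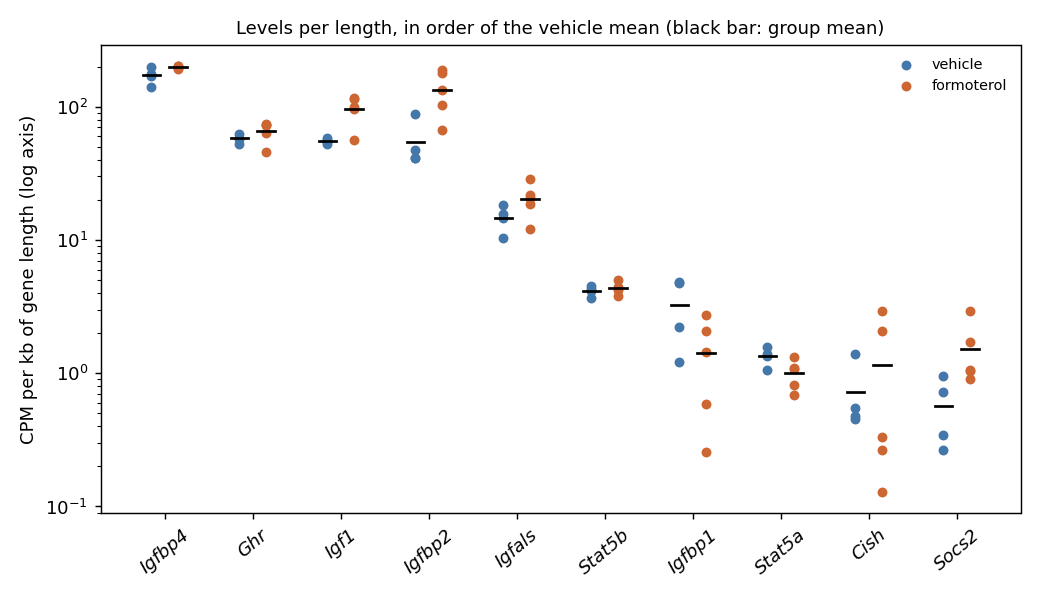
CPM per kb of gene length (log axis) for each member, in order of the vehicle mean, with 1 point per library and a black bar at the group mean. Igfbp4 led in both groups (172 and 198.0 CPM per kb on average), and Igfbp2 and Igf1 had higher formoterol means than Ghr (134 and 96.7 against 65.5).

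Among 17 other genes of growth hormone receptor signalling, 16 were tested, 0 had an unadjusted p under 0.05 in either direction, and the median log2 fold change was −0.11. Without M49, 1 higher and 1 lower gene had such a p. With library-total scaling 1 lower gene did, and with quality weights 2 higher and 1 lower. The smallest p values were those of the phosphatase Ptpn1 (log2 fold change −0.37, SE 0.22), the inhibitor Socs3 (0.58, SE 0.40), Stat3 (0.28, SE 0.20) and Socs7 (−0.63, SE 0.55). Jak2, the kinase bound to the receptor, had 15.5 ± 1.91 CPM in formoterol against 14.1 ± 0.582 in vehicle livers. Of 17 other IGF system genes 12 were tested, 0 had an unadjusted p under 0.05, 10 of 12 log2 fold changes were negative, and the median was −0.32. Leaving out M46, M49 or M50 gave 1 gene at such a p, with a higher value without M46 and a lower one without M49 or M50. By limma-voom 1 lower gene had such a p, and with quality weights 4 lower genes did. The smallest p values belonged to Igfbp7, a binding protein of endothelial and stromal cells (−0.56, SE 0.31), Irs1, an adaptor of the insulin and IGF1 receptors (−1.17, SE 0.69), Igf2r, the clearance receptor for IGF2 (−0.22, SE 0.15, with groups that did not overlap, as for 2.38% of all genes in that direction), and Igf1r, the IGF1 receptor (−0.61, SE 0.45). Irs1 (158 counts over all libraries, 0 in M48) and Igf1r (195 counts) were rare, so their fold changes are uncertain. Igf2 had 0 counts in every library, and Igfbp3, the main carrier of IGF1 in blood, had 27.4 ± 12.7 CPM against 24.3 ± 3.28.

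Liver genes known to depend on growth hormone and STAT5 were listed as a further group, with earlier results of these data known. Of 16 listed 14 were tested, 12 had a positive log2 fold change with a median of 0.59, and 8 positive and 1 negative change had an unadjusted p below 0.05, against 9.03% and 5.53% of all genes. The list was not divided into genes that growth hormone raises and genes that it lowers. A count of positive changes, with Bcl6 among them, is therefore no measure of STAT5 activity, which was not tested. Because the genes were listed with earlier results known, the counts are a description only. They were 5 and 1 without M47, 6 and 1 without M46 or with library-total scaling, and 9 and 1 by DESeq2. By edgeR adjusted over all genes 0 passed, while DESeq2 called Egfr (adjusted p = 0.00589), Hsd3b5 (0.00257) and Cyp2b9 (0.0131). Egfr, the epidermal growth factor receptor, had 194 ± 102 CPM in formoterol livers against 51.4 ± 19.0 in vehicle livers, and by edgeR its log2 fold change was 1.92 (SE 0.41; adjusted p = 0.159). The groups did not overlap for Egfr and for the repressor Bcl6, where 2.45% of all genes were higher in that way. For Bcl6, M50 held 43.5 CPM and the other formoterol libraries 14.2 to 15.8, barely above the highest vehicle library at 13.8. Hsd3b5, a steroid dehydrogenase of male mouse liver, had 53.2 ± 30.1 against 0.975 ± 1.02, with M49 at 0.780 inside the vehicle range, and Lifr, a cytokine receptor, 82.4 ± 23.2 against 52.4 ± 7.33. Cyp2b9, a P450 that is higher in female mouse liver, was the lower one at 41.4 ± 18.7 against 103 ± 48.5, and by edgeR its log2 fold change was −1.31 (SE 0.37; adjusted p = 0.187). Hsd3b5, Serpina3k, Mup20, Cyp2d9 and Cyp2b9 have near-identical copies, so their values are uncertain.

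Genes that respond to insulin, FOXO factors or cyclic AMP in liver, the setting in which Igfbp1 is usually studied, had 14 tested under 15 listed names. Their median log2 fold change was −0.09, and 0 positive and 2 negative changes had an unadjusted p below 0.05, or 1 negative change without M56 or without M59. The negative ones were Pdk4, a kinase that restrains pyruvate oxidation (−1.04, SE 0.33), and the transcription factor Foxo3 (−0.54, SE 0.21). Crem, a cyclic AMP-induced factor, had 12.7 ± 0.896 CPM against 10.1 ± 0.917 and groups that did not overlap (2.45% of all genes were higher in that way), and Sik1, a cyclic AMP-responsive kinase, 7.30 ± 3.06 against 9.90 ± 1.25. Pck1, the gluconeogenic enzyme, had 1233 ± 284 CPM against 1161 ± 282.

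Markers of liver cell types were summed in each library, and none of the sums was tested. The summed level of 9 hepatocyte markers, of which Alb made up 66.0% to 72.4%, was 103900 to 145100 CPM in formoterol against 89560 to 102200 CPM in vehicle libraries, and the ranges did not overlap. For every other cell type listed the ranges overlapped. Of the 9 hepatocyte markers, 7 log2 fold changes were positive and 2 negative, those of Apob (−0.20) and Hnf4a (−0.10). At an unadjusted p below 0.05, 4 had higher and 0 lower values, against 9.03% and 5.53% of all genes. The 4 were Apoa1, Serpina1c (which has near-identical copies), Asgr1 and Fgb, genes of secreted or surface proteins. The count of higher markers was 2 without M46, without M59 and with library-total scaling. Stellate and fibroblast markers summed to 84.3 to 399 CPM in formoterol against 258 to 427 in vehicle libraries, endothelial markers to 44.6 to 140.2 against 116 to 147, and Kupffer cell and macrophage markers to 51.8 to 117 against 88.2 to 149.6. In these 3 lists, of 10 genes each, 9, 10 and 8 log2 fold changes were negative, with medians of −0.34, −0.37 and −0.34, and 0, 1 and 2 genes had an unadjusted p below 0.05, all with lower values. They were Wnt2 among endothelial markers (log2 fold change −2.19, SE 0.89) and Lyz2 (−0.69, SE 0.25) and Ccr2 (−1.22, SE 0.56) among macrophage markers. The Wnt2 groups did not overlap, as for 2.38% of all genes in that direction. Wnt2 held only 93 counts over all libraries, with 0 in M46, M47 and M49, so its fold change is uncertain. The smallest p among stellate markers was that of the collagen gene Col3a1 (−0.76, SE 0.46). The stellate count was 4 without M49 and 7 with quality weights, all lower. The endothelial count was 0 without M59 or M60, 2 without M49 or M50 and 5 with quality weights. The macrophage count was 0 without M56 and 1 without M46, M47, M48, M50, M58 or M59. Cholangiocyte markers (7 listed, 6 tested) summed to 76.1 to 272 against 90.6 to 207 CPM, with 0 genes at that p (2 lower without M49), and adipocyte markers to 88.6 to 133 against 49.5 to 107. Of 6 adipocyte markers 3 were tested and 1 had a higher value at that p, Cfd (log2 fold change 2.68, SE 0.50; 1 lower gene joined it without M49), while Plin1 had 0 counts in every library and Adipoq and Lep 12 counts each in all. M46, the formoterol library highest in Igf1, Igfals, Igfbp2 and Socs2, had the lowest stellate and endothelial sums, and M49, lowest in Igf1, Igfals, Igfbp2 and Ghr, had the highest of both among formoterol libraries (84.3 and 44.6 CPM against 399 and 140.2). M50 did not follow this order. Its Igf1 was close to that of M46 (1141 against 1159 CPM), while its stellate and endothelial sums, 270 and 129 CPM, were the next highest after M49.

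On a scale chosen after the data were seen, per 10000 CPM of the hepatocyte marker sum, Igf1 was 52.8 to 64.3 in vehicle libraries and 85.0, 79.7, 65.4, 54.0 and 106 in formoterol libraries M46 to M50. The same 4 formoterol libraries stayed above every vehicle library, M48 by a small margin, and the mean log2 difference was 0.40. Igfbp2 on this scale was 8.16 to 16.0 in vehicle and 25.4, 26.9, 16.9, 11.9 and 17.5 in formoterol libraries, a log2 difference of 0.91. Socs2 differed by 1.09, with 2 formoterol libraries above the highest vehicle library where 4 were above it in CPM, and Igfals by 0.08. The log2 differences of the other 6 members were negative on this scale. Ghr (−0.21), Stat5b (−0.30), Cish (−0.50) and Igfbp4 (−0.15), all positive in CPM, turned negative, and Stat5a (−0.82) and Igfbp1 (−1.79) were further below 0 than in CPM. The part of the marker differences in these results was not tested.

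The genes whose levels followed a member most closely from library to library were ranked by Pearson correlation of log2 CPM after subtracting group means, over 9 libraries and 8271 or 8272 other genes with a mean of at least 5 CPM. For Igf1 these were Sppl3 (0.99), Serpina1a (0.97, with near-identical copies) and Zfp60 (0.96). For Igfbp2 they were the predicted gene Gm15427 (0.98), the ribosomal protein gene Rps6 (0.96) and Acsm1 (0.95), and for Igfbp1 the uncoupling protein gene Ucp2 (0.98), Taok1 (0.97) and Nhlrc3 (0.97). For Socs2 the highest were lower, Gpbp1 (0.94), Babam1 (0.93) and Stx17 (0.90). With so many genes and so few libraries, values near 1 occur among unrelated genes, so these are descriptions. On the same scale Igf1 correlated at 0.83 with Ghr and 0.80 with Igfals, Igfbp2 at 0.84 with Igfals, and Cish at 0.30 with Socs2 and 0.08 with Igf1. M49 was the lowest formoterol library for Igf1, Ghr, Igfals and Igfbp2. How far the correlations among these genes rest on that library was not tested.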

How the data were processed

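The authors deposited raw read counts per Ensembl gene, whole numbers in 1 column per library. HISAT2 2.0.5, DESeq2 and the build mm39 are named, without their roles, per the submitters' processing notes. Counting program, strand setting and annotation: not given in the sources used here. Columns carry animal codes, no replicate numbers; group was read from the column ending and the 5 and 4 mice of the design text. The members, gene lists and tests were chosen with earlier results of these data known. Counts were tested with edgeR 4.0.16 (R 4.3.3; filterByExpr, minimum count 10, minimum total 15; TMM; robust quasi-likelihood; Benjamini-Hochberg over all genes tested, threshold 0.05), and the code was tested on simulated counts. DESeq2 1.42.0 and limma 3.58.1 were alternatives. SEs follow from the quasi-likelihood F; CPM are mean ± SD. Ratios within a library used two-sided exact permutation tests. The genes kept held at least 99.84% of counts. Each library was taken as 1 mouse, since the design text counts mice; otherwise p-values measure only spread between samples, which may be technical. No pair of libraries agreed within sampling noise (chi-square per degree of freedom at least 24.3). Named genes are the 10 members, up to 4 genes of smallest p per list of growth hormone, IGF, STAT5-dependent, insulin and cyclic AMP, hormone and cell type genes, and the 3 best correlated genes; a few list genes (Jak2, Igfbp3, Igf2, Pck1, Bcl6 and the uncertain ones) were named after their values were seen. The symbols Tf and G6pc1 matched no row. Promoter windows are RefSeq sequences on GRCm38.p6, matched by symbol.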

Additional observations from a re-analysis of the deposited data

Results flagged for a closer look

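In 20 sets of values (10 members in 2 groups), 2 held a library far from the others by Dixon's criterion at the 95% level; chance flags about 1 in 20. Vehicle library M56 held 9.03 CPM of Cish, with a gap to the next vehicle library equal to 0.9 of the group's range. Vehicle library M60 held 163.7 CPM of Igfbp2, with a gap of 0.872 of the range.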

How the results depend on the processing

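No paired analysis was possible because the deposited columns carry no replicate number. The number of genes called over the whole table was 0, but 263 without a filter on low counts, 314 by DESeq2 and 1410 by limma-voom with sample quality weights, and 0 to 702 with 1 library left out. The number of members called was 0, but 1 without the filter (Igf1), 3 by DESeq2 and 5 with quality weights, and 0 to 2 with 1 library left out. Members at an unadjusted p under 0.05 numbered 3, but 5 by DESeq2 and 8 with quality weights, and 3 to 6 with 1 library left out (6 without M60, 5 without M49). The direction of the log2 fold change of Stat5b turned with library-total scaling (−0.0751), and that of Cish with limma-voom (−0.226) and without M47 (−0.0557), with a range from −0.0557 to 1.20 with 1 library left out; the cause was not tested. The other 8 members kept their direction in the 18 alternatives fitted across all genes, but per hepatocyte marker sum Ghr (−0.21) and Igfbp4 (−0.15) also turned. Library-total scaling moved the median of all genes by −0.15. With 1 library left out, a choice made after the data were seen, the log2 ratio difference ran from 2.17 to 3.36 (without M60) for Igfbp2 to Igfbp1 (exact permutation p from 0.0357 to 0.125), from 0.52 to 0.66 for Igf1 to Ghr and from −2.14 to −1.11 for Cish to Socs2. DESeq2 gave an adjusted p to 11264 genes. Igfbp1 (539 counts over all libraries) and Cish (864) had the fewest counts of the members.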
